A study of Mus musculus with 23 samples.

Results

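The immediate early genes are transcribed within minutes of a stimulus and need no new protein synthesis for it, so their messenger RNA marks recent signalling in a tissue. The 10 followed here were the AP-1 subunits Fos, Fosb, Jun and Junb, the zinc-finger factors Egr1, Egr2 and Egr3, the orphan nuclear receptor Nr4a1, and Ier2 and Ier3. They were taken by gene symbol, and all 10 had a row among the 20628 genes of the muscle table, the 26702 of the fat table and the 25623 of the hypothalamus table. The rows were picked by symbol and not by value, but the list was chosen with earlier results of these data known.

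Growth factor and stress signals reach these genes mainly through the MAP kinases ERK, JNK and p38, and in neurons also through calcium. The kinases act on factors already bound at the promoters, serum response factor with its Elk partners at CArG boxes and CREB at cyclic AMP elements. The products are short-lived, and feedback genes such as the ERK phosphatase Dusp6 shut the signal down again. Fos and Jun proteins pair to form AP-1, Egr proteins bind GC-rich sites, Nr4a1 controls metabolic genes in muscle and is induced by stress in the brain, Ier2 is a nuclear regulator, and Ier3 is a stress and NF-kB target that modulates cell survival and ERK signalling.

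The mice were C57BL/6, an inbred strain, and received oxaliplatin at 10 mg/kg, a platinum drug that crosslinks DNA, or vehicle, with tissues taken after 8 weeks. Age, sex and the make-up of the vehicle were not given in the sources used here. RNA sequencing covered tibialis anterior muscle, a fast shin muscle (5 oxaliplatin, 4 vehicle libraries), subcutaneous white fat (4 oxaliplatin, mice 2 to 5, and 3 vehicle, mice 1, 2 and 4) and hypothalamus, a brain centre of appetite and hormone control (4 oxaliplatin, mice 2 to 5, and 3 vehicle, mice 1, 2 and 4). Each library is 1 numbered mouse, and the hours between the last injection and dissection were not given in the sources used here.

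Library totals (M counts) ranged over 22.4 to 32.2 in oxaliplatin muscle against 27.3 to 31.2 in vehicle muscle, over 16.5 to 18.0 in oxaliplatin fat against 16.9 to 22.7 in vehicle fat, and over 23.6 to 26.4 in oxaliplatin hypothalamus against 27.3 to 28.5 in vehicle hypothalamus. Levels below are CPM, a gene's count relative to its library's total in M counts, with the total scaled by TMM factors within a tissue. Tissues matched their labels by marker genes: 6 muscle fibre markers summed to 124658 to 171340 CPM in oxaliplatin and 125195 to 170851 CPM in vehicle muscle, and the 6 neuron markers to 1998 to 2912 CPM in oxaliplatin and 2393 to 2534 CPM in vehicle hypothalamus. The 10 hypothalamus markers summed to 806 to 1133 CPM in oxaliplatin and 818 to 1131 CPM in vehicle hypothalamus. The 6 adipocyte markers summed to 4058 to 10041 CPM in oxaliplatin fat and 10059 to 14352 CPM in vehicle fat.

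Some libraries stood apart or went against a label, and they bear on several genes below. Vehicle fat of mouse 4 held 121263 CPM of muscle fibre markers, against at most 3000 CPM in any other fat library. Oxaliplatin hypothalamus of mouse 2 held 1342 CPM over 12 markers of forebrain outside the hypothalamus, against 116 to 156 CPM in the other 6 hypothalamus libraries. Oxaliplatin fat of mouse 5 kept 394 CPM of Lep, the leptin gene of adipocytes, where the other 3 oxaliplatin libraries had 5.16 to 11.7 CPM and the vehicle libraries 875 to 911 CPM. Oxaliplatin muscle of mouse 5 is titled oxaliplatin but has vehicle as its treatment entry, and it is counted by its title.

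The promoters of Ier3, Nr4a1 and Egr2 are shown because these genes had every oxaliplatin value above every vehicle value in hypothalamus. On GRCm38 the genes lie at chr17:35821684-35822923, chr15:101254269-101274795 and chr10:67535475-67542188, and each codes for protein. The lines give the 250 bases before a RefSeq start site (build GRCm38.p6), 5′ to 3′ on the plus strand, which is the coding strand of all 3 genes. They are Ier3 at chr17:35821463-35821712, Nr4a1 at chr15:101266596-101266845 and, for 1 of the 5 listed starts of Egr2, chr10:67537619-67537868. Capitals mark GGAATTTCC in Ier3, TGACG or its reverse complement in Nr4a1, and both TGACG and a CArG box in Egr2.
Ier3: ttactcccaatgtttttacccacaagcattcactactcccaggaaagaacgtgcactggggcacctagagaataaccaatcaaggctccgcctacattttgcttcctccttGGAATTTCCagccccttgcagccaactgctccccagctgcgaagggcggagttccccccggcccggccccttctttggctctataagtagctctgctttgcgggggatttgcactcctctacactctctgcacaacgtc
Nr4a1: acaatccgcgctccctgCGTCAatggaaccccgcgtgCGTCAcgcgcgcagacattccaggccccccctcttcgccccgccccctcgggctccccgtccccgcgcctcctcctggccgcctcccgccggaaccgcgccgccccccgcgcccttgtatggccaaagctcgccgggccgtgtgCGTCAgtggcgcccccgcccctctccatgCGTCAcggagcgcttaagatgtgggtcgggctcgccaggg
Egr2: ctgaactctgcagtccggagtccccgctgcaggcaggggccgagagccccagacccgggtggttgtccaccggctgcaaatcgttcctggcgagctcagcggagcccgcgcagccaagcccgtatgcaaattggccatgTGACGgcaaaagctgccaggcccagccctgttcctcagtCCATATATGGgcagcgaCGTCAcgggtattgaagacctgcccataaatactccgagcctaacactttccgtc

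The RefSeq promoter table matched 7 of the 10 genes, with 11 start sites. On both strands of each 300-base window, 250 bases before and 50 after the start, 7 motifs were searched. They were the CArG box of serum response factor, the cyclic AMP element TGACGTCA and its core TGACG, which overlap, the AP-1 site TGANTCA, the Egr site GCGNGGGCG, the TATA box as TATAAA, and GGAATTTCC. GGAATTTCC, an NF-kB type sequence, was found in 0.317% of all 32851 windows and begins at position -139 of Ier3. The core TGACG was present in 20.8% of windows. Nr4a1 held it 4 times, and 0.231% of windows held at least 4 copies. A CArG box was present in 1.63% of windows and in the Egr2 window shown, but in no window of the other matched genes. Of the matched genes not shown, Fos held TGACG 2 times and Fosb and Junb 1 time each. The other motifs occurred in 1.79% (TGACGTCA), 7.81% (TGANTCA), 5.55% (GCGNGGGCG) and 13.6% (TATAAA) of windows. Fosb and Nr4a1 held GCGNGGGCG, Fos and Junb held TATAAA, and Jun held none of the 7 motifs. The motifs were chosen with these sequences in view, and a match describes letters, not binding.

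The order of the immediate early genes differed between tissues when levels were divided by exon length. In muscle, Nr4a1 stood first at 45.2 ± 14.2 CPM per kilobase with oxaliplatin (SD, n = 5) and 45.1 ± 8.71 with vehicle (SD, n = 4). Jun followed with 18.9 ± 9.29 CPM per kilobase in oxaliplatin and 19.5 ± 1.61 in vehicle muscle, then Ier3 with 14.9 ± 1.96 in oxaliplatin and 9.65 ± 0.262 in vehicle muscle. The other 7 genes averaged at most 2.67 CPM per kilobase in oxaliplatin and 2.60 in vehicle muscle, down to Fosb at 0.0652 and 0.0470.

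Jun led in both other tissues, at 23.5 ± 4.60 CPM per kilobase in oxaliplatin and 35.1 ± 5.35 in vehicle fat, and at 21.5 ± 4.86 in oxaliplatin and 21.6 ± 2.58 in vehicle hypothalamus. Junb was next in both, at 19.8 ± 3.33 in oxaliplatin and 18.3 ± 4.02 in vehicle fat, and at 20.8 ± 7.66 in oxaliplatin and 14.9 ± 4.14 in vehicle hypothalamus. The lowest were Fosb in fat (0.365 ± 0.136 with oxaliplatin, 0.609 ± 0.231 with vehicle) and Egr2 in hypothalamus (0.367 ± 0.279 with oxaliplatin, 0.150 ± 0.0370 with vehicle). Most neighbours in these orders were not separable: of the 9 neighbouring pairs per tissue, the library ranges were apart for 2 in oxaliplatin and 4 in vehicle muscle, 2 in oxaliplatin and 3 in vehicle fat, and 2 in oxaliplatin and 3 in vehicle hypothalamus. In vehicle muscle these were Nr4a1 over Jun, Jun over Ier3, Ier3 over Ier2, and Egr2 over Egr3. Muscle libraries were made with another kit, so levels are not compared between muscle and the other tissues as a test.

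**Figure D1:**
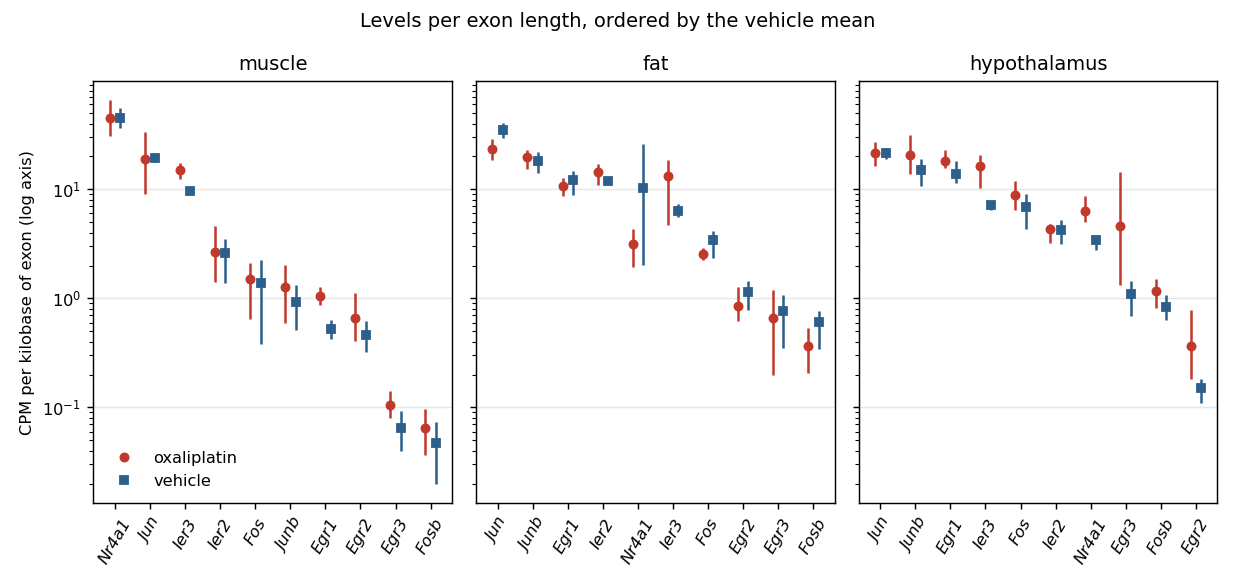
CPM per kilobase of exon (log axis) of the 10 genes in muscle, fat and hypothalamus, ordered by the vehicle mean, with oxaliplatin left (red circles) and vehicle right (blue squares). Points are group means and lines run from the lowest to the highest library; Nr4a1 leads in muscle, at 45.2 with oxaliplatin and 45.1 with vehicle, and Jun leads in fat and hypothalamus.

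In muscle, Egr1 and Ier3 were the genes whose oxaliplatin libraries all lay above the vehicle libraries, but neither passed the adjusted threshold. Egr1, a zinc-finger factor induced by growth and mechanical stimuli, had 5.45, 5.67, 4.30, 3.92 and 4.22 CPM in oxaliplatin mice 1 to 5, against 2.13, 1.91, 2.86 and 2.43 CPM in vehicle mice 1 to 4. The lowest oxaliplatin value, in mouse 4, was above the highest vehicle value, in mouse 3, and the ratio of the means was 2.02. The log2 fold change was 1.01 ± 0.19 (SE), with an edgeR quasi-likelihood adjusted p of 0.0604 over 14737 genes.

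Ier3 had 19.9, 14.0, 17.6, 15.7 and 17.3 CPM in oxaliplatin muscle, against 10.8, 10.9, 10.7 and 11.3 CPM in vehicle muscle. All vehicle libraries were within 1 CPM of each other and the groups did not overlap, with oxaliplatin 1.55 times the vehicle mean. The log2 fold change was 0.63 ± 0.12 (edgeR adjusted p = 0.0629). With each of the 9 libraries left out in turn, the edgeR adjusted p ran from 0.0820 to 0.154 for Egr1 and from 0.0691 to 0.189 for Ier3. With mouse 5 set to vehicle, as its treatment entry has it, the log2 fold changes were 0.83 ± 0.24 for Egr1 and 0.46 ± 0.17 for Ier3 (edgeR adjusted p = 0.883 and 1.0).

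No immediate early gene of the 10 was called in muscle, where edgeR called 0.163% of all genes tested. At an unadjusted p below 0.05 there were 2 of 10, against 9.59% of all genes, and DESeq2 with its own adjustment called Egr1 and Ier3 (adjusted p = 0.000353 and 0.000671), against 1.72% of all genes. The arms did not overlap, oxaliplatin higher, for 2 of 10 genes and for 2.18% of all genes. Log2 fold changes were above 0 for 9 of 10, with a median of 0.45, while 47.8% of all genes were above 0 and their median was -0.01. The 9 include Nr4a1 and Ier2, which were near 0 (0.00 ± 0.22 and 0.04 ± 0.34).

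The other 8 genes overlapped between the arms in muscle. Nr4a1, the most abundant per length, had 108, 169, 171, 230 and 114 CPM in oxaliplatin mice 1 to 5, against 128, 139, 195 and 172 CPM in vehicle mice 1 to 4. Its highest and lowest values were both in oxaliplatin libraries, and the log2 fold change was 0.00 ± 0.22. Jun had 107, 47.5, 49.0, 28.6 and 69.2 CPM in oxaliplatin, against 58.6, 65.9, 67.4 and 57.2 CPM in vehicle muscle (log2 fold change -0.05 ± 0.30).

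Jun spread widely among oxaliplatin mice and narrowly among vehicle mice, and mouse 1 was also highest in Junb and Ier2. Junb had 3.67, 2.46, 2.0, 1.07 and 2.23 CPM in oxaliplatin mice, against 1.39, 1.95, 2.41 and 0.933 CPM in vehicle mice (0.46 ± 0.35). Ier2 had 6.99, 4.40, 3.30, 2.15 and 3.45 CPM in oxaliplatin mice, against 3.36, 5.09, 5.28 and 2.12 CPM in vehicle mice (0.04 ± 0.34). In both genes the vehicle values lay within the oxaliplatin range or just below it.

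Fos, the AP-1 partner of Jun, had 3.77, 4.92, 4.05, 3.38 and 1.51 CPM in oxaliplatin and 5.25, 0.896, 4.68 and 2.12 CPM in vehicle muscle (0.12 ± 0.46). Egr2 had 1.38, 2.18, 1.95, 1.89 and 3.77 CPM in oxaliplatin and 1.52, 1.10, 1.57 and 2.09 CPM in vehicle muscle (0.51 ± 0.30). The highest Egr2 value came from mouse 5, the library with conflicting labels. Fosb and Egr3 were scarce, at 0.230 to 0.600 CPM and 0.350 to 0.623 CPM in oxaliplatin, against 0.123 to 0.454 CPM and 0.175 to 0.407 CPM in vehicle muscle, which is 3 to 19 counts a library.

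In fat no immediate early gene was called either, and there edgeR called 0 of all 19870 genes tested (0%). Jun was the gene whose oxaliplatin libraries all lay below the vehicle libraries, with 66.3, 92.1, 59.6 and 81.4 CPM in oxaliplatin mice 2 to 5, against 95.1, 129 and 111 CPM in vehicle mice 1, 2 and 4. The closest values were 92.1 CPM in oxaliplatin mouse 3 and 95.1 CPM in vehicle mouse 1. The log2 fold change was -0.58 ± 0.18 (edgeR adjusted p = 0.131), and DESeq2 gave an adjusted p of 0.0431.

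That 1 of 10 genes was lower without overlap compares with 11.2% of all genes in fat. At an unadjusted p below 0.05 there were 2 of 10 (Jun and Ier3), against 26.1% of all genes, and DESeq2 called 1 of 10, against 12.4% of all genes, and gave no adjusted p for Nr4a1. Log2 fold changes were above 0 for 3 of 10, with a median of -0.33, while 52.4% of all genes were above 0 and their median was 0.03. Junos, an antisense gene that overlaps Jun, had 0.941 to 1.59 CPM in oxaliplatin and 1.47 to 1.71 CPM in vehicle fat. The strand used in counting was not given in the sources used here, so reads where Jun and Junos overlap cannot be told apart. On chromosome 4 Jun spans bases 95049034 to 95052222, and Junos begins at base 95051534.

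Ier3 in fat separated 3 oxaliplatin mice from all others. It had 19.0, 21.1 and 14.5 CPM in oxaliplatin mice 2, 3 and 4 and 5.29 CPM in oxaliplatin mouse 5, against 8.21, 6.93 and 6.33 CPM in vehicle mice 1, 2 and 4. Mouse 5 was below every vehicle library, so the arms overlapped, and the log2 fold change was 1.07 ± 0.44 (edgeR adjusted p = 0.181). Without that library it was 1.34 ± 0.19 and the call was made (edgeR adjusted p = 0.00367), in a fit that called 4969 of 19472 genes, 25.5%. Over the other 6 libraries left out, Ier3 was not called.

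The summed adipocyte markers ran the other way over the same fat libraries. They were 4326, 4058 and 4679 CPM in oxaliplatin mice 2, 3 and 4 and 10041 CPM in oxaliplatin mouse 5, against 14352, 10454 and 10059 CPM in vehicle mice 1, 2 and 4. All 6 markers were detected in every fat library. The sum of the 6 fibroblast markers split the same libraries. It was 633, 1068 and 907 CPM in oxaliplatin mice 2, 3 and 4 and 9220 CPM in oxaliplatin mouse 5. In vehicle mice 1, 2 and 4 it was 4946, 6675 and 6013 CPM. Col1a1, Col3a1, Dpt and Lum split as the sum did, but Dcn and Pdgfra overlapped. Dcn was 440, 705 and 617 CPM in oxaliplatin mice 2, 3 and 4, against 411 to 583 CPM in vehicle mice. Pdgfra was 90.3, 167 and 107 CPM in the same oxaliplatin mice, against 95.6 to 163 CPM in vehicle mice. The sum of the 5 erythroid markers also split these libraries. It was 204, 321 and 554 CPM in oxaliplatin mice 2, 3 and 4 and 1528 CPM in oxaliplatin mouse 5, against 681 to 937 CPM in vehicle mice. Of 14 marker lists, adipocyte and astrocyte markers had sums that did not overlap between the arms (astrocyte 579 to 1475 CPM in oxaliplatin and 474 to 559 CPM in vehicle fat). The astrocyte sum was mostly Slc1a3 (333 to 767 CPM in oxaliplatin, 264 to 298 CPM in vehicle fat) and Aldh1l1 (182 to 603 CPM and 147 to 178 CPM). Gfap was at most 0.289 CPM and Aqp4 at most 7.65 CPM in fat, so that sum does not stand for astrocytes. The part of any of these marker lists in the fat values was not tested. In bulk tissue, fewer cells of a type and less RNA per cell cannot be told apart.

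Nr4a1 in fat turned on the vehicle library rich in muscle fibre transcripts. It had 15.3, 13.6, 6.78 and 8.41 CPM in oxaliplatin mice 2 to 5, against 9.01 and 7.16 CPM in vehicle mice 1 and 2 and 92.0 CPM in vehicle mouse 4. The arms overlapped, and the log2 fold change was -1.71 ± 0.88 with that library and 0.46 ± 0.37 without it (edgeR adjusted p = 0.250 and 0.502). The 6 muscle fibre markers summed to 273 to 3000 CPM in oxaliplatin fat and to 1146, 13.2 and 121263 CPM in vehicle mice 1, 2 and 4, with none at 0, and their part in the Nr4a1 values was not tested.

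The AP-1 and Egr genes other than Jun overlapped between the arms in fat. Fos had 6.22, 6.86, 5.68 and 5.29 CPM in oxaliplatin mice, against 9.68, 9.24 and 5.50 CPM in vehicle mice (-0.44 ± 0.23). Fosb had 2.11, 3.35, 2.36 and 1.29 CPM in oxaliplatin mice, against 4.81, 4.45 and 2.15 CPM in vehicle mice (-0.73 ± 0.39). Egr1 had 44.7, 56.4, 53.0 and 39.0 CPM in oxaliplatin mice, against 57.0, 66.0 and 40.0 CPM in vehicle mice (-0.17 ± 0.20).

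In all 3 of these genes the lowest vehicle value was in mouse 4, and without it Fos, Fosb, Jun and Egr1 were lower in every oxaliplatin library, where 30.2% of all genes had no overlap in either direction. Junb had 39.2, 41.7, 34.6 and 28.0 CPM in oxaliplatin and 34.4, 39.6 and 25.3 CPM in vehicle fat, and Ier2 had 26.2, 23.5, 21.0 and 16.7 CPM in oxaliplatin and 19.1, 18.2 and 17.1 CPM in vehicle fat. Egr2 ranged from 2.11 to 4.35 CPM in oxaliplatin and from 2.67 to 4.91 CPM in vehicle fat, and Egr3 from 0.866 to 5.29 CPM in oxaliplatin and from 1.54 to 4.74 CPM in vehicle fat. None of these 4 had arms apart.

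**Figure D2:**
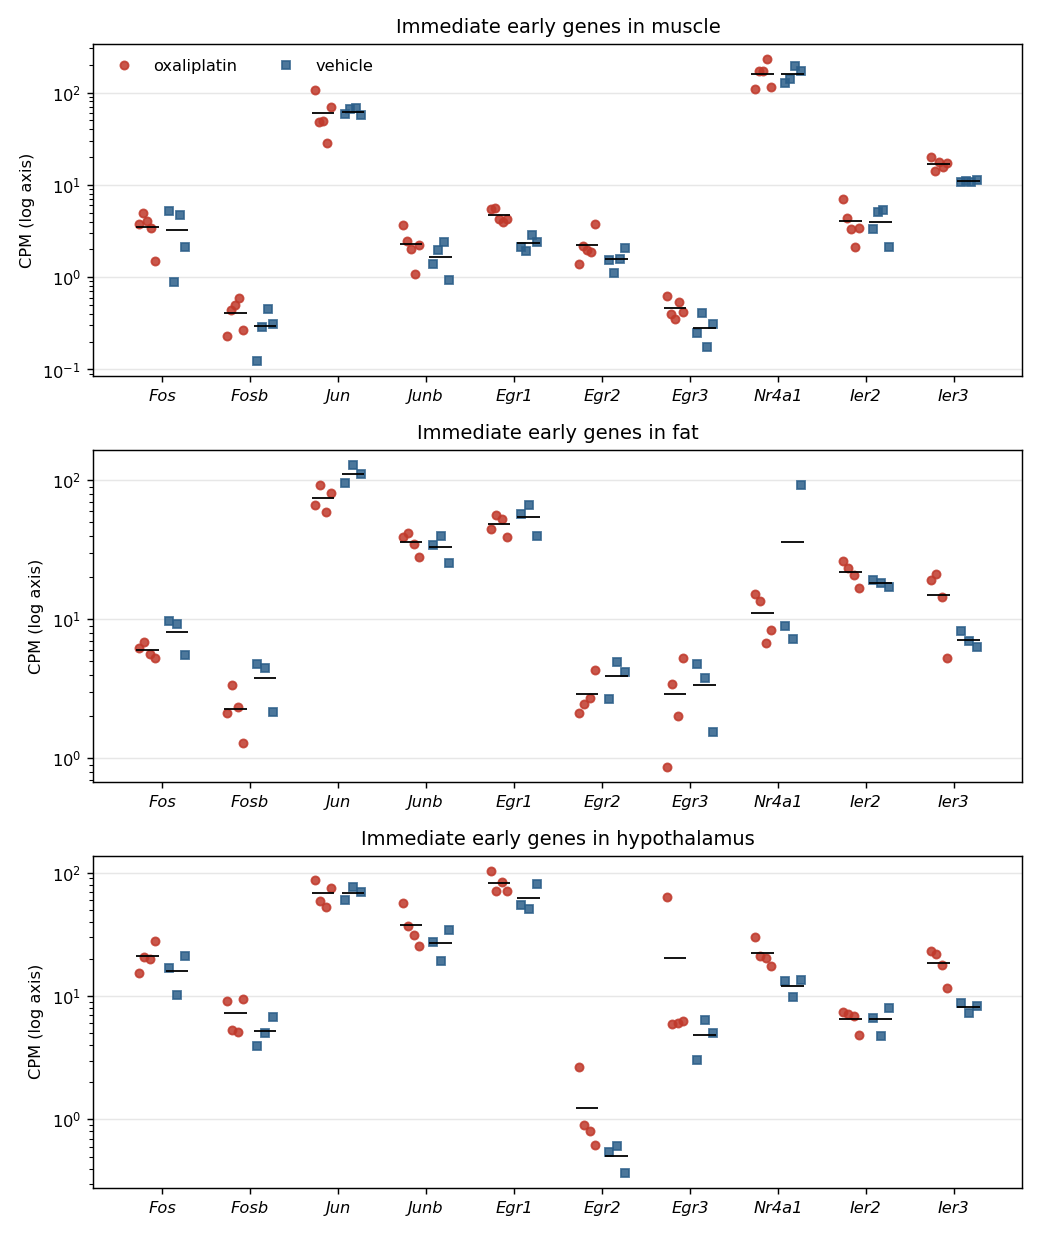
CPM (log axis) of each of the 10 genes in every library of muscle, fat and hypothalamus, oxaliplatin left (red circles, by mouse number) and vehicle right (blue squares), with black bars at the group means. The arms are apart for Egr1 and Ier3 in muscle, Jun in fat, and Egr2, Nr4a1 and Ier3 in hypothalamus; Nr4a1 of vehicle fat mouse 4 (92.0 CPM) and Egr3 of oxaliplatin hypothalamus mouse 2 (63.1 CPM) stand far from their groups.

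In hypothalamus, Ier3, Nr4a1 and Egr2 had every oxaliplatin library above every vehicle library, again with no gene past the adjusted threshold. Ier3 had 23.4, 21.7, 17.7 and 11.6 CPM in oxaliplatin mice 2 to 5, against 8.72, 7.34 and 8.23 CPM in vehicle mice 1, 2 and 4. Mouse 5 was again the lowest of the oxaliplatin mice but here stayed above the vehicle libraries, and the ratio of the means was 2.30. The log2 fold change was 1.20 ± 0.22 (edgeR adjusted p = 0.118 over 18941 genes, DESeq2 adjusted p = 7e-05).

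Nr4a1 had 30.2, 21.0, 20.4 and 17.5 CPM in oxaliplatin hypothalamus, against 13.2, 9.75 and 13.5 CPM in vehicle hypothalamus. The gap lay between 17.5 CPM in oxaliplatin mouse 5 and 13.5 CPM in vehicle mouse 4. The log2 fold change was 0.88 ± 0.20 (edgeR adjusted p = 0.237, DESeq2 adjusted p = 0.00520). Without oxaliplatin mouse 5 both genes were called (edgeR adjusted p = 0.00204 for Ier3 and 0.0324 for Nr4a1), in a fit that called 655 of 18781 genes, 3.49%.

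Egr2 was the scarcest of the 10 in hypothalamus, with 2.66, 0.905, 0.807 and 0.617 CPM in oxaliplatin mice 2 to 5, against 0.547, 0.612 and 0.369 CPM in vehicle mice 1, 2 and 4. The values 0.617 CPM in oxaliplatin mouse 5 and 0.612 CPM in vehicle mouse 2 rest on 15 and 17 counts, so the arms were apart by less than counting error. The log2 fold change was 1.28 ± 0.54 with all libraries (edgeR adjusted p = 0.469) and 0.60 ± 0.39 without oxaliplatin mouse 2. Egr3, its close relative, had 63.1, 5.88, 6.04 and 6.25 CPM in oxaliplatin mice, against 3.01, 6.37 and 5.02 CPM in vehicle mice.

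The Egr3 difference turned on oxaliplatin mouse 2: the log2 fold change was 2.08 ± 1.14 with it and 0.34 ± 0.24 without it (edgeR adjusted p = 0.584 and 0.711). The same library carried the forebrain transcripts given above. The 12 markers summed to 1342, 137, 156 and 116 CPM in oxaliplatin mice 2 to 5, against 121, 123 and 119 CPM in vehicle mice 1, 2 and 4, with none at 0. Slc17a7, the glutamate transporter of cortical neurons, was 602 CPM there and 2.16 to 27.3 CPM in the other 6 libraries, and its part in the Egr3 and Egr2 values was not tested.

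No immediate early gene was called in hypothalamus, against 0.148% of all genes, each of them higher with oxaliplatin. At an unadjusted p below 0.05 there were 3 of 10, against 10.2% of all genes, and DESeq2 called 2 (Ier3 and Nr4a1), against 1.54% of all genes. The arms did not overlap, oxaliplatin higher, for 3 of 10 and for 5.58% of all genes. Log2 fold changes were above 0 for 9 of 10, with a median of 0.47, while 52.0% of all genes were above 0 and their median was 0.01. The 9 include Ier2, which was near 0 (0.02 ± 0.21).

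The remaining genes overlapped between the arms in hypothalamus. Fos, whose messenger is a classic marker of neuronal activity, had 15.3, 20.6, 19.9 and 28.1 CPM in oxaliplatin mice, against 16.8, 10.3 and 21.1 CPM in vehicle mice (0.39 ± 0.27). Egr1 had 104, 70.7, 84.0 and 70.7 CPM in oxaliplatin mice, against 54.8, 51.1 and 81.1 CPM in vehicle mice (0.40 ± 0.19). Only vehicle mouse 4 reached into the oxaliplatin range of Egr1, and without it the arms of Egr1 and Fosb were also apart, where 14.5% of all genes had no overlap in either direction.

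Junb had 57.1, 36.8, 31.1 and 25.2 CPM in oxaliplatin hypothalamus, against 27.3, 19.4 and 34.4 CPM in vehicle hypothalamus (0.48 ± 0.30). Fosb had 9.14, 5.31, 5.07 and 9.42 CPM in oxaliplatin mice, against 3.97, 5.04 and 6.72 CPM in vehicle mice (0.47 ± 0.28). Jun had 86.7, 59.1, 52.7 and 75.5 CPM in oxaliplatin mice, against 60.4, 76.8 and 69.6 CPM in vehicle mice (-0.01 ± 0.17). Ier2 was likewise mixed, at 4.85 to 7.37 CPM in oxaliplatin and 4.79 to 7.97 CPM in vehicle mice (0.02 ± 0.21).

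Endothelial markers moved with the hypothalamus arms. Of the 8 markers, edgeR called 3 higher, Pecam1, Eng and Vwf, against 0.148% of all genes. Their log2 fold changes were 1.49 ± 0.18, 1.25 ± 0.12 and 2.97 ± 0.30 (edgeR adjusted p = 0.0212, 0.00738 and 0.0193). The 8 markers summed to 562, 643, 546 and 341 CPM in oxaliplatin mice 2 to 5, against 151, 165 and 166 CPM in vehicle mice 1, 2 and 4. Mouse 5 was lowest among the oxaliplatin libraries both in this sum and in Ier3. In muscle the same sum was 222 to 257 CPM with oxaliplatin and 152 to 192 CPM with vehicle. There edgeR called 1 of the 8, against 0.163% of all genes: Pecam1 rose by 0.68 ± 0.11 (edgeR adjusted p = 0.0443). Cdh5, Kdr, Tek, Tie1 and Cldn5 overlapped between the muscle arms. In fat the sums overlapped, at 1263 to 1401 CPM with oxaliplatin and 940 to 1337 CPM with vehicle, and edgeR called 0 of the 8.

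Other marker sums moved with the arms too. In hypothalamus the pituitary markers, of which 3 of 5 were in the table, summed to 4.03 to 14.8 CPM with oxaliplatin and 20.9 to 39.3 CPM with vehicle, without overlap. Pomc, among those 3, is also among the 10 hypothalamus markers, so this sum is not specific to pituitary. The 5 erythroid markers were 99.1, 74.4 and 251 CPM in oxaliplatin mice 2, 3 and 4 and 1322 CPM in oxaliplatin mouse 5, against 912, 706 and 645 CPM in vehicle mice 1, 2 and 4. In this sum oxaliplatin mouse 5 lay above every vehicle library and the other 3 oxaliplatin mice below them. In muscle the neuron markers, 4 of 6 with a row, summed to 5.94 to 7.72 CPM with oxaliplatin and 3.14 to 4.89 CPM with vehicle. Most of that sum was Stmn2, at 5.56 to 7.63 CPM with oxaliplatin and 2.20 to 4.24 CPM with vehicle. Tubb3 tended the other way, at 0.0891 to 0.394 CPM with oxaliplatin and 0.246 to 0.804 CPM with vehicle. Rbfox3 and Gad1 reached at most 0.317 CPM. The part of the endothelial, pituitary, erythroid and neuron markers in the Ier3, Nr4a1 and Egr1 values was not tested.

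**Figure D3:**
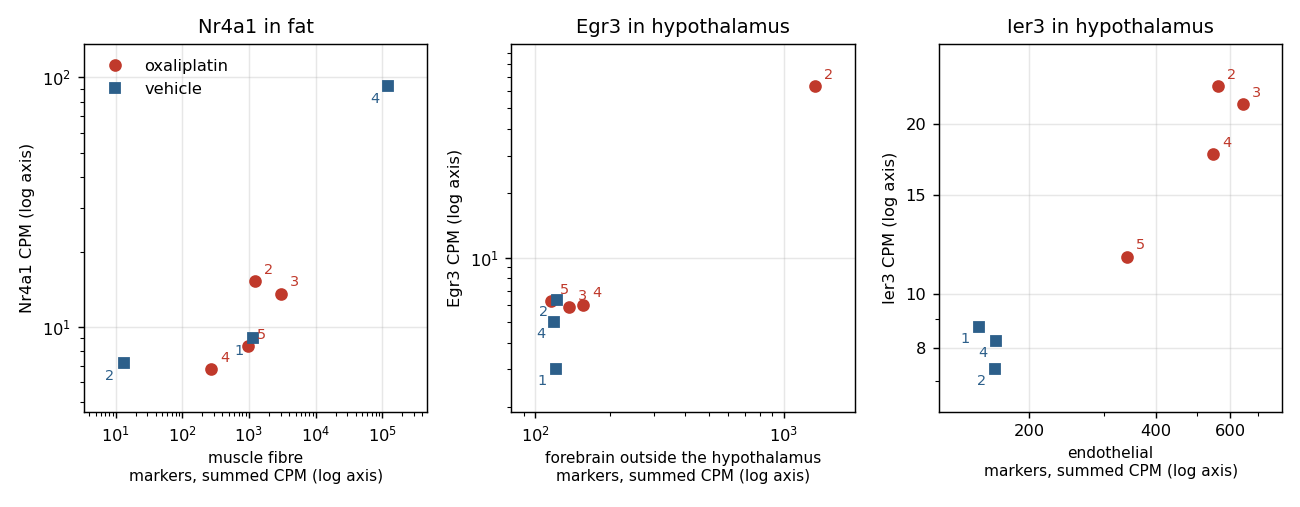
CPM of Nr4a1 in fat against summed muscle fibre markers, of Egr3 in hypothalamus against summed forebrain markers, and of Ier3 in hypothalamus against summed endothelial markers, with log axes, 1 point a library labelled by mouse number (red circles oxaliplatin, blue squares vehicle). Vehicle fat mouse 4 (121263 CPM of markers, 92.0 CPM of Nr4a1) and oxaliplatin hypothalamus mouse 2 (1342 CPM of markers, 63.1 CPM of Egr3) lie apart, and in Ier3 the oxaliplatin libraries lie above and right of the vehicle libraries.

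Ier3 had a positive log2 fold change in every tissue, at 0.63 ± 0.12 in muscle, 1.07 ± 0.44 in fat and 1.20 ± 0.22 in hypothalamus. The mouse numbers recur across tissues, so these may be values of the same animals. Ier2 and Junb were the other genes with positive log2 fold changes in all 3 tissues, between 0.02 and 0.27 for Ier2 and between 0.12 and 0.48 for Junb. Jun had negative values in all 3, from -0.58 in fat to -0.01 in hypothalamus. Egr1 was 1.01 ± 0.19 in muscle, -0.17 ± 0.20 in fat and 0.40 ± 0.19 in hypothalamus.

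Tests of whether the oxaliplatin effect differed between tissues called none of the 10 genes. Between muscle and fat, edgeR called 0.239% of all genes, and Egr1 had the smallest p of the 10, with a difference of 1.15 ± 0.26 on the log2 scale (edgeR adjusted p = 0.0677, DESeq2 adjusted p = 0.00639). Between muscle and hypothalamus, 0.0689% of all genes were called, and the smallest p among the 10 was that of Nr4a1 (-0.84 ± 0.32, edgeR adjusted p = 0.405). Between fat and hypothalamus, 0.311% were called, and Nr4a1 again had the smallest p (-2.59 ± 0.96, edgeR adjusted p = 0.175), on values that include vehicle fat mouse 4. At an unadjusted p below 0.05 there were 1, 3 and 4 of 10 in these comparisons, against 17%, 9.33% and 19.7% of all genes, and DESeq2 called 1, 0 and 0 of 10, against 4.87%, 1.18% and 6.7% of all genes. Leaving out oxaliplatin fat mouse 5 called Egr1 and Ier3 between muscle and fat (1.08 ± 0.26 and -0.72 ± 0.21, edgeR adjusted p = 0.0149 and 0.0441), in a fit that called 8.64% of all genes. Leaving out vehicle fat mouse 4 called Egr1 (1.35 ± 0.26, edgeR adjusted p = 0.0495), where 0.151% of all genes were called.

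**Figure D4:**
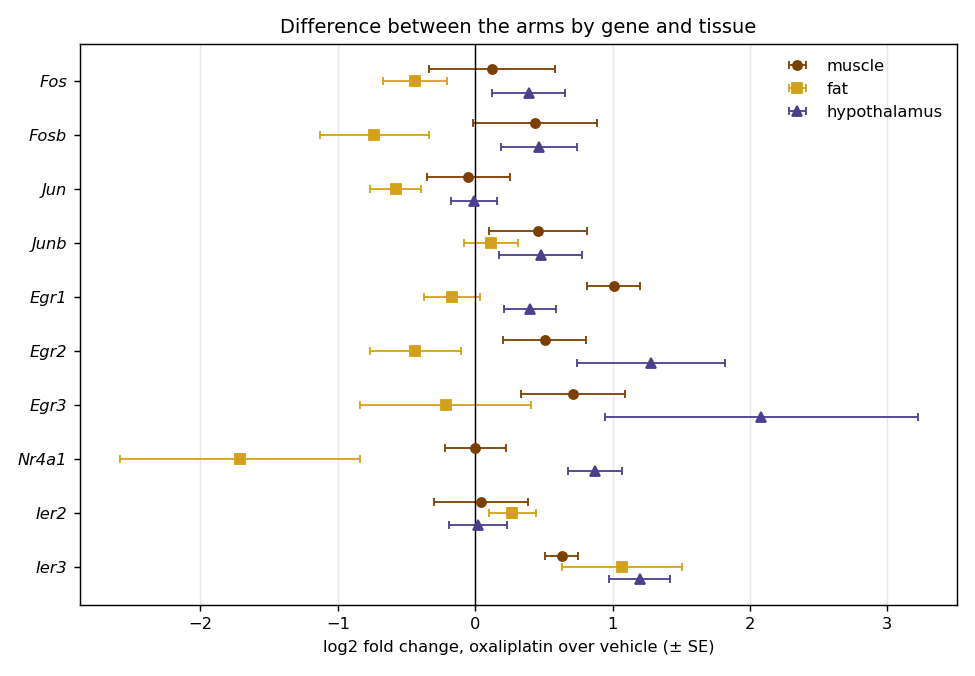
Log2 fold change of oxaliplatin over vehicle (x axis, bars are ± SE of the edgeR fit) of each gene in muscle (brown circles), fat (yellow squares) and hypothalamus (violet triangles). Ier3 lies above 0 in all 3 tissues (0.63, 1.07 and 1.20), while the wide bars of Nr4a1 in fat (-1.71 ± 0.88) and Egr3 in hypothalamus (2.08 ± 1.14) each turn on 1 library.

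**Figure D5:**
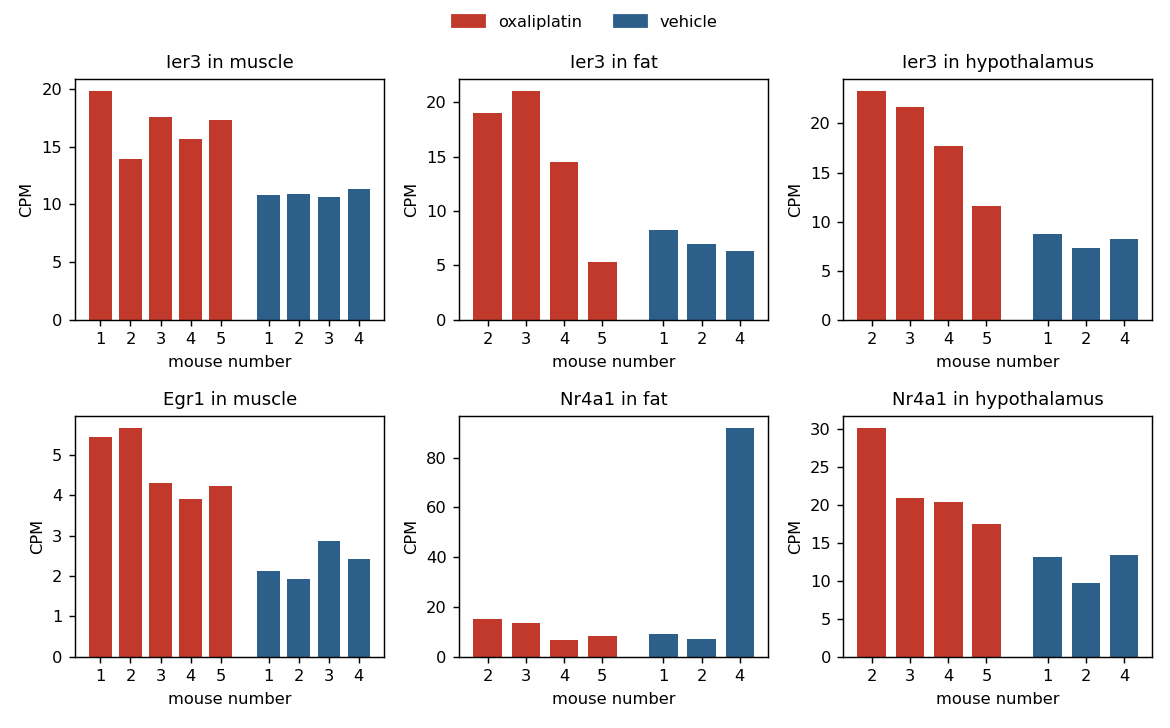
CPM of Ier3 in muscle, fat and hypothalamus, Egr1 in muscle, and Nr4a1 in fat and hypothalamus, 1 bar a library by mouse number, oxaliplatin left (red) and vehicle right (blue). Oxaliplatin mouse 5 has the lowest Ier3 of its arm in fat (5.29 CPM) and hypothalamus (11.6 CPM) but not in muscle (17.3 CPM).

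Among the feedback genes and effectors of the same response, Dusp6, the phosphatase that switches off ERK, was the 1 gene of these lists that edgeR called in any tissue. In hypothalamus it had 40.2, 36.0, 31.3 and 27.9 CPM in oxaliplatin mice 2 to 5, against 17.3, 14.5 and 17.5 CPM in vehicle mice 1, 2 and 4, and it rose by 1.04 ± 0.14 (edgeR adjusted p = 0.0297). The arms were well apart, but the call held in only 2 of 7 fits that left out a library. Those were the fits without oxaliplatin mouse 2 or mouse 5, and edgeR adjusted p ran from 0.117 to 0.207 in the others. The log2 fold change of Dusp6 stayed between 0.95 and 1.12 in all 7. On all libraries limma-voom did not make the call (adjusted p = 0.0571). Neither did edgeR with the mouse number as a block (1.14 ± 0.19, adjusted p = 0.117), which kept only mice 2 and 4 of each arm.

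The 23 genes of that list in hypothalamus had 1 called higher and 0 lower, 20 with log2 fold changes above 0 and a median of 0.52, and 8 with all oxaliplatin libraries higher. Over all genes in hypothalamus, 52% were above 0, the median was 0.01 and 5.58% had all oxaliplatin libraries higher. The 8 included Sik1, a kinase induced by cyclic AMP (61.8 ± 5.22 CPM with oxaliplatin, 43.4 ± 3.41 CPM with vehicle), Dusp4, another MAP kinase phosphatase (9.09 ± 0.518 and 5.97 ± 0.224 CPM), and Per1, a clock gene that glucocorticoids induce (115 ± 11.8 and 85.2 ± 5.62 CPM). Their edgeR adjusted p-values were 0.127, 0.169 and 0.237. In muscle 21 of the 23 genes were tested, 0 were called, 10 were above 0 and the median was 0.00. At an unadjusted p below 0.05 there were 5 of 21, against 9.59% of all genes, and DESeq2 called 1 higher (Btg2) and 1 lower (Rgs2), against 1.72%.

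Muscle feedback genes had log2 fold changes in different directions, and edgeR called none of them. Btg2, an antiproliferative gene, had 31.1 to 70.4 CPM in oxaliplatin and 21.0 to 26.5 CPM in vehicle muscle (0.90 ± 0.21, edgeR adjusted p = 0.142). Rgs2, a brake on G protein signalling, had 0.853 to 2.10 CPM in oxaliplatin and 2.27 to 5.09 CPM in vehicle muscle (-1.11 ± 0.29, adjusted p = 0.192), and Dusp1, a phosphatase of JNK and p38, had 9.61 to 25.5 CPM in oxaliplatin and 23.1 to 49.2 CPM in vehicle muscle (-0.88 ± 0.26, adjusted p = 0.263). In fat all 23 were tested, 17 were above 0 and edgeR called 0. An unadjusted p below 0.05 was reached by 11 of 23, against 26.1% of all genes, and DESeq2 called 6, against 12.4%, while 52.4% of all genes were above 0. There Rgs2 had 174, 172, 135 and 13.7 CPM in oxaliplatin mice 2 to 5, against 9.75, 9.36 and 6.71 CPM in vehicle mice 1, 2 and 4 (3.85 ± 0.83, edgeR adjusted p = 0.114).

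Of the other immediate early transcription factors, edgeR called 0 in every tissue. An unadjusted p below 0.05 was reached by 3 of 16 in muscle, 10 of 16 in fat and 8 of 18 in hypothalamus, against 9.59%, 26.1% and 10.2% of all genes. DESeq2 called 0, 7 and 3 of them, against 1.72%, 12.4% and 1.54% of all genes. In hypothalamus 18 of 19 were tested, 15 were above 0 with a median of 0.32, and 8 had all oxaliplatin libraries higher, against 52% and 5.58% of all genes and a median of 0.01. Klf4, a zinc-finger factor of endothelium and many other cells, had 12.7, 19.7, 16.2 and 12.7 CPM in oxaliplatin mice, against 8.35, 9.14 and 8.27 CPM in vehicle mice (0.84 ± 0.17, edgeR adjusted p = 0.159). Maff, a small Maf protein, had 13.9, 16.8, 11.9 and 2.92 CPM in oxaliplatin mice, against 1.71, 1.76 and 1.70 CPM in vehicle mice (2.72 ± 0.56, adjusted p = 0.237), with mouse 5 lowest of the oxaliplatin mice as in Ier3.

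In fat, 16 of these factors were tested, 8 lay above and 8 below 0, and the arms were apart for 4 higher and 2 lower, against 10.3% and 11.2% of all genes. Nr4a3, a sister of Nr4a1, had 158, 150, 10.2 and 3.59 CPM in oxaliplatin mice 2 to 5, against 2.0, 2.66 and 1.43 CPM in vehicle mice 1, 2 and 4 (5.31 ± 1.48, edgeR adjusted p = 0.121). Myc had 35.9, 47.7, 40.2 and 25.8 CPM in oxaliplatin and 15.8, 18.6 and 19.2 CPM in vehicle fat (1.07 ± 0.21, adjusted p = 0.10), and Klf10, a TGF-beta early response factor, had 29.2, 30.3, 30.3 and 41.2 CPM in oxaliplatin and 57.3, 69.3 and 56.4 CPM in vehicle fat (-0.90 ± 0.16, adjusted p = 0.0878). Mouse 5 was the oxaliplatin library nearest to vehicle in each of these 3 genes.

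In muscle, 16 of the factors were tested, 12 were above 0 with a median of 0.36, and 0 had arms apart. Klf10 had 107, 43.6, 40.6, 26.7 and 173 CPM in oxaliplatin mice 1 to 5, against 23.8, 27.9, 24.4 and 32.0 CPM in vehicle mice 1 to 4 (1.53 ± 0.54, edgeR adjusted p = 0.401). The kinases and factors upstream gave 0 calls by edgeR in every tissue. Those at an unadjusted p below 0.05 were 2 of 19 in muscle, 6 of 20 in fat and 1 of 20 in hypothalamus, against 9.59%, 26.1% and 10.2% of all genes. DESeq2 called 0, 2 and 0 of them, against 1.72%, 12.4% and 1.54% of all genes. Median log2 fold changes of these kinases and factors were 0.05 in muscle, -0.01 in fat and 0.16 in hypothalamus, where the medians of all genes were -0.01, 0.03 and 0.01. Among them Elk3, an Elk partner of serum response factor, had the smallest p in hypothalamus (12.6 ± 1.02 CPM with oxaliplatin, 9.34 ± 1.67 CPM with vehicle; edgeR adjusted p = 0.388).

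Within groups, libraries that were high in Junb were also high in Ier2. Over the 23 libraries, after centring log2 CPM within tissue and arm, Pearson's r was 0.92 and Spearman's rho 0.89 for Junb and Ier2, the highest r of the 45 pairs, and 0.87 without the 2 libraries farthest from the median of Junb. Junb and Egr1 followed with an r of 0.65. Egr2 and Egr3 had an r of 0.54 and a rho of 0.21. Their r was 0.28 without the 2 libraries farthest from the median of Egr2. These are descriptions, since the libraries share tissues and depths.

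The 5 genes outside the 10 whose centred log2 CPM was most like the mean of the 10, of 13274 genes tested in all tissues, were Fbxo34 (Pearson's r = 0.83), Rab40c (0.79), Pip5k1a (0.77), Rbbp7 (0.76) and Gdf1 (0.76). Without the 2 libraries farthest from the median of that mean, oxaliplatin hypothalamus of mouse 2 and oxaliplatin fat of mouse 3, r was 0.60, 0.60, 0.53, 0.49 and 0.49. The likeness therefore leaned on those libraries.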

How the data were processed

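RNA was sequenced from 23 libraries of 3 mouse tissues, 1 library for each numbered mouse and tissue, and mouse numbers recur across tissues. Per the labels' protocols, muscle RNA went into a Clontech SMARTer kit and RNA of the other tissues into a RiboErase kit, which removes ribosomal RNA, each from RNA with an integrity number above 8. The submitters' processing notes name STAR 2.5.1a, Partek and DESeq2 without saying what each did, and which build they mapped to was not given in the sources used here. Starts of genes equalled those of GENCODE M21 (GRCm38) for at least 99.44% of shared identifiers in each table, so positions are given on that build, counted from 1.

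Values in the deposited tables are expected counts, estimated for each gene by the authors and not scaled between libraries: 45.2%, 41.1% and 48.7% of values in muscle, fat and hypothalamus were not whole (tolerance 1e-09). Whole counts had been assumed in the plan, so the values were rounded first. No row summed below 10, and genes below that sum are not analysed here. Of 34 within-group pairs of libraries none was a copy, with a lowest chi-square per degree of freedom of 7.37.

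Each tissue was fitted alone in edgeR 4.0.16 (R 4.3.3) with filterByExpr (minimum count 10, minimum total 15), TMM factors, the robust quasi-likelihood F test and Benjamini-Hochberg adjustment over all genes tested, with 0.05 as the threshold. The SE is the log2 fold change over the square root of F. CPM are divided by TMM factors, and CPM per kilobase also by GENCODE exon length within the deposited gene span. Differences between tissues were tested as interactions over the libraries of both tissues. The fit was tested on simulated data.

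The 10 genes, the pathway and marker lists and the rule for named genes (up to 4 a list and tissue by smallest p, and the 5 most alike genes) were chosen with earlier results of these data known. The forebrain markers and the promoter motifs were chosen after these files were examined. Alternatives were DESeq2 1.42.0, limma-voom (limma 3.58.1), other factors, other filters, each library left out, the mouse number or animal as a block, and the other reading of muscle mouse 5. Counts set the precision, which is coarsest for Fosb and Egr3 in muscle. P-values measure the spread between these numbered mice.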

Additional observations from a re-analysis of the deposited data

Results flagged for a closer look

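Of 40 groups of 4 or 5 libraries of 1 gene, 2 had a library far from the others, and chance gives about 1 in 20. Both came from oxaliplatin hypothalamus of mouse 2. Egr3 was 63.1 CPM there and 5.88 to 6.25 CPM in the other 3 oxaliplatin libraries, so the gap made up 0.993 of the group's range. Egr2 was 2.66 CPM there and 0.617 to 0.905 CPM in the others, a gap of 0.859 of the range. The same library held 1342 CPM of forebrain markers, whose part in these values was not tested.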

How the results depend on the processing

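Depth limited Fosb and Egr3 in muscle most, and each group held 3 to 5 mice. Against 0 of 10 genes called in each tissue and in each difference between tissues, DESeq2 called 2 in muscle, 1 in fat, 2 in hypothalamus and 1 between muscle and fat. With 1 library left out, the number called ran from 0 to 1 in fat, 0 to 2 in hypothalamus and 0 to 2 between muscle and fat, and stayed at 0 in muscle. Of 443 fold changes of the 10 genes under other settings, 427 kept direction and side of the threshold, 6 passed the threshold and 10 turned sign, and with libraries left out these numbers were 623, 6 and 58 of 687. The cause of the changes was not tested.

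Among the values that turned sign, Nr4a1 in muscle was -0.0103 with upper-quartile factors, -0.0280 with limma-voom and -0.00288 at a mean of at least 1 CPM, and Egr2 in muscle was -0.13 with mouse 5 as vehicle. For muscle minus hypothalamus, Fosb was 8.50e-05 with DESeq2, 0.0176 with limma-voom, 0.0119 with the animal as a block and 0.16 with mouse 5 as vehicle, where Fos was 0.13 and Junb -0.0653. With 1 library left out, the log2 fold change ran in muscle from -0.25 to 0.21 for Ier2, -0.18 to 0.45 for Fos, -0.36 to 0.14 for Jun and -0.17 to 0.12 for Nr4a1. In fat it ran from -0.68 to 0.11 for Egr3, -0.0277 to 0.26 for Junb and -2.20 to 0.46 for Nr4a1, and in hypothalamus from -0.16 to 0.20 for Ier2 and -0.14 to 0.0858 for Jun. For muscle minus fat, Nr4a1 ran from -0.45 to 2.24. For muscle minus hypothalamus the ranges were -0.23 to 0.27 for Fosb, -0.23 to 0.23 for Ier2, -0.22 to 0.30 for Junb, -0.31 to 0.17 for Jun, -0.54 to 0.0928 for Fos and -1.63 to 0.43 for Egr3. For fat minus hypothalamus, Ier3 ran from -0.33 to 0.14. Fosb and Egr3 in muscle gave no value at a mean of at least 1 CPM.

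Counts over all genes moved more: edgeR called 24 in muscle, 0 in fat and 28 in hypothalamus, DESeq2 254, 2428 and 262, and limma-voom 13, 0 and 11. Without a filter on low counts edgeR called 42, 0 and 32, and with mouse 5 as vehicle it called 0 in muscle.

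Mouse numbers gave no pairing of the arms: same-numbered libraries correlated at 0.0512, -0.0936, -0.177 and 0.174 in muscle, -0.177 and -0.28 in fat, and 0.0323 and -0.0113 in hypothalamus. The replicate block kept only mouse numbers found in both arms, mice 1 to 4 in muscle and mice 2 and 4 in fat and hypothalamus. The effects of the block and of the dropped libraries therefore cannot be told apart. In these fits 0 of the 10 genes were called in any tissue, and 3, 0 and 64 of all genes in muscle, fat and hypothalamus. Egr1 in muscle was 1.04 ± 0.24 (edgeR adjusted p = 0.282). Ier3 was 0.61 in muscle, 1.32 ± 0.25 in fat and 1.37 ± 0.20 in hypothalamus (edgeR adjusted p = 0.299, 0.118 and 0.0850). Dusp6 in hypothalamus was not called with the block, at 1.14 ± 0.19 (edgeR adjusted p = 0.117).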
